A study of Mus musculus with 12 samples.

Results

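The genes that write, erase and read histone acetylation were followed here as 34 members, taken by name: 13 acetyltransferases, 15 deacetylases, 3 bromodomain readers and 3 cofactors. Each window of the deposited table was given to the gene the table names as nearest, and windows within 100 kb of that gene's transcription start site were summed per gene. Of the 34 members, 33 had such a window, out of 15879 genes that did, and 32 had a promoter window, within 1 kb of the start site, out of 11591. Together they held 158 of the 67822 windows, 58 of them at promoters. Sirt2 had no window, and Hdac8 had 1 intronic window and none at its promoter.

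The measurement was H3K27ac chromatin immunoprecipitation followed by sequencing (ChIP-seq) of CD11b+ microglia, the resident macrophages of the brain, isolated from mouse forebrain on magnetic beads. The knockout group was Nlrp3-/-, made from Cias1-knockout mice of Millennium Pharmaceuticals (Cias1 is the older name of Nlrp3), and the wild-type group was on the C57BL/6N background. Nlrp3 encodes the sensor of an inflammasome, and the series title places the study in microglia and Alzheimer's disease. Each genotype had 3 H3K27ac libraries and 3 input libraries of sheared chromatin taken before immunoprecipitation. The labels used here give no age or sex and do not say whether the replicates are separate animals, so p-values measure the spread between these libraries.

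Histone acetyltransferases move an acetyl group from acetyl-CoA to lysines of histone tails, and acetylated lysine 27 of histone H3 (H3K27ac) marks active promoters and enhancers. p300 and CBP, encoded by Ep300 and Crebbp, place most of this mark. Histone deacetylases of the zinc-dependent HDAC family and the NAD-dependent sirtuins remove acetyl groups, and bromodomain proteins bind acetylated lysine. The values below describe the mark on the genes that encode this machinery, not the amount or activity of the proteins.

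The H3K27ac libraries held between 4531757 and 5028129 tags in knockout and between 3726550 and 4492763 in wild type, of which 39.1% to 46.1% lay in windows, against 8.31% to 9.32% in inputs. At the Nlrp3 promoter the H3K27ac libraries held 18, 20 and 59 tags in knockout and 318, 271 and 314 in wild type. The inputs there held 2, 1 and 0 tags in knockout and 14, 14 and 6 in wild type, lower in knockout as well. The cause was not tested. Summed promoter H3K27ac of 10 microglia markers, 9 of which had a promoter window, was 285 to 330 CPM in knockout, scaled to all tags of the library (all-tag CPM), and 293 to 359 in wild type. All 9 were above input in both genotypes, and 6 neuron and 5 monocyte and neutrophil markers had no promoter window. Of 5 border macrophage markers 2 had one, with a sum of 1.59 to 6.09 in knockout and 0.472 to 3.34 in wild type; of these Pf4 averaged 2.23 in knockout and 0.148 in wild type. Of 5 astrocyte and 6 lymphocyte markers 1 each had one, with sums of at most 0.994 and 0.398 in knockout and 1.18 and 2.003 in wild type. Summed endothelial markers reached 20.1 to 23.2 all-tag CPM in knockout and 12.3 to 23.8 in wild type, with Cldn5 at or near 0. Most of this came from Kdr, at 13.7 in knockout and 12.8 in wild type, and Pecam1, at 6.60 and 5.51. Both were called above input in both genotypes. Summed oligodendrocyte markers reached 6.70 to 14.3 in knockout and 7.80 to 8.05 in wild type, and Mbp and Mog were called above input in both genotypes. Wild-type replicate 1 had 0 tags at Y-linked promoters in H3K27ac and in input, where the other H3K27ac libraries had 183 to 239. The part of these differences in the results below was not tested.

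The RefSeq promoter table (GRCm38.p6) matched 28 of the 34 members with 43 sequences, some of which overlap. For 23 of these members a start site lay in a promoter window. The 250 bases before the start site held a median of 18 CG dinucleotides in the member sequences and 6 over all 32841 promoters. All promoters here include those without a window, and the members were not compared with other marked promoters. The letters GGGCGG, the core of the GC box, on either strand, were in 62.8% of the member sequences and 32.8% of all promoters. CCGGAAG, an ETS-type motif, was in 20.9% of member sequences and 6.91% of all, and CCAAT was in 34.9% and 33.9%. GAGGAAG, the form bound by PU.1, the ETS factor of microglia, was in 4.65% of member sequences and 10.6% of all. 4 promoters are printed, 5′ to 3′, because they span the range of the mark described next: Ep300 and Kat5 lay far above input, Acss2 a little above it, and Kat2a held about as few tags as input. Capitals mark CG dinucleotides, of which there were 25 for Ep300, 24 for Kat5, 13 for Acss2 and 11 for Kat2a. For Kat5 the sequence with the most CG dinucleotides is printed. Its bases lie downstream of another Kat5 start site, whose own sequence held 15. CG counts did not order the members by mark: Ncoa1 had 40 at 1.73 over input in knockout, and Kat7 had 8 at 3.78.
Ep300, chr15:81585964-81586213, plus strand: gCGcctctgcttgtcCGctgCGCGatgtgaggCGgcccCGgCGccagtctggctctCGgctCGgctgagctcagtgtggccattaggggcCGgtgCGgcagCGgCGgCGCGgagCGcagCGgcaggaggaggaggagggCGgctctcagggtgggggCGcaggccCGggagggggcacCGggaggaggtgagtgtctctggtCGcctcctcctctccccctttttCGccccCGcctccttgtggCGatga
Kat5, chr19:5609745-5609994, minus strand: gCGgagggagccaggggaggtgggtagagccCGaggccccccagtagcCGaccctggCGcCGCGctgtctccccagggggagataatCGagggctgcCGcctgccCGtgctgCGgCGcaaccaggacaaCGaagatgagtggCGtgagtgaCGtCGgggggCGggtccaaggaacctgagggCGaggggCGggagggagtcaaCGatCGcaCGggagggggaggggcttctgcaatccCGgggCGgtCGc
Acss2, chr2:155517793-155518042, plus strand: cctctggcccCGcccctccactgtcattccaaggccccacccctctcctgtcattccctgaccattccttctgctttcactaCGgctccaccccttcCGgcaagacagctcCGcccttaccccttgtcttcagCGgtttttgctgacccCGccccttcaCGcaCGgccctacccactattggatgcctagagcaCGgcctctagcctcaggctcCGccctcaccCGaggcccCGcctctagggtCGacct
Kat2a, chr11:100712468-100712717, minus strand: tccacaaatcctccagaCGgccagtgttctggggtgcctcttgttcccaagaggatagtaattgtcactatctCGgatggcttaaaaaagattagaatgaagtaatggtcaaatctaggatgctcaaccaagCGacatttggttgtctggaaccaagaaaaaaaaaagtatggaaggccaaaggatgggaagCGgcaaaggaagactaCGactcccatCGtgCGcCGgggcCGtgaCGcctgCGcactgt

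Promoters of the machinery were marked in both genotypes. With H3K27ac set against input on the scale of all tags of a library, 28 of the 29 members tested were called higher in knockout (95.3% of all 9190 promoters tested) and 28 of 29 in wild type (93.3% of all). These shares are near the background. The median log2 fold over input was 3.76 in knockout and 3.51 in wild type for the members, and 3.51 in knockout and 3.31 in wild type over all promoters. By class, the knockout medians were 3.82 for acetyltransferases, 3.73 for deacetylases, 3.44 for readers and 4.16 for cofactors. The wild-type medians were 3.74, 3.42, 3.24 and 4.39 in the same order. All were from edgeR's quasi-likelihood test with Benjamini-Hochberg adjustment at 0.05.

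**Figure D1:**
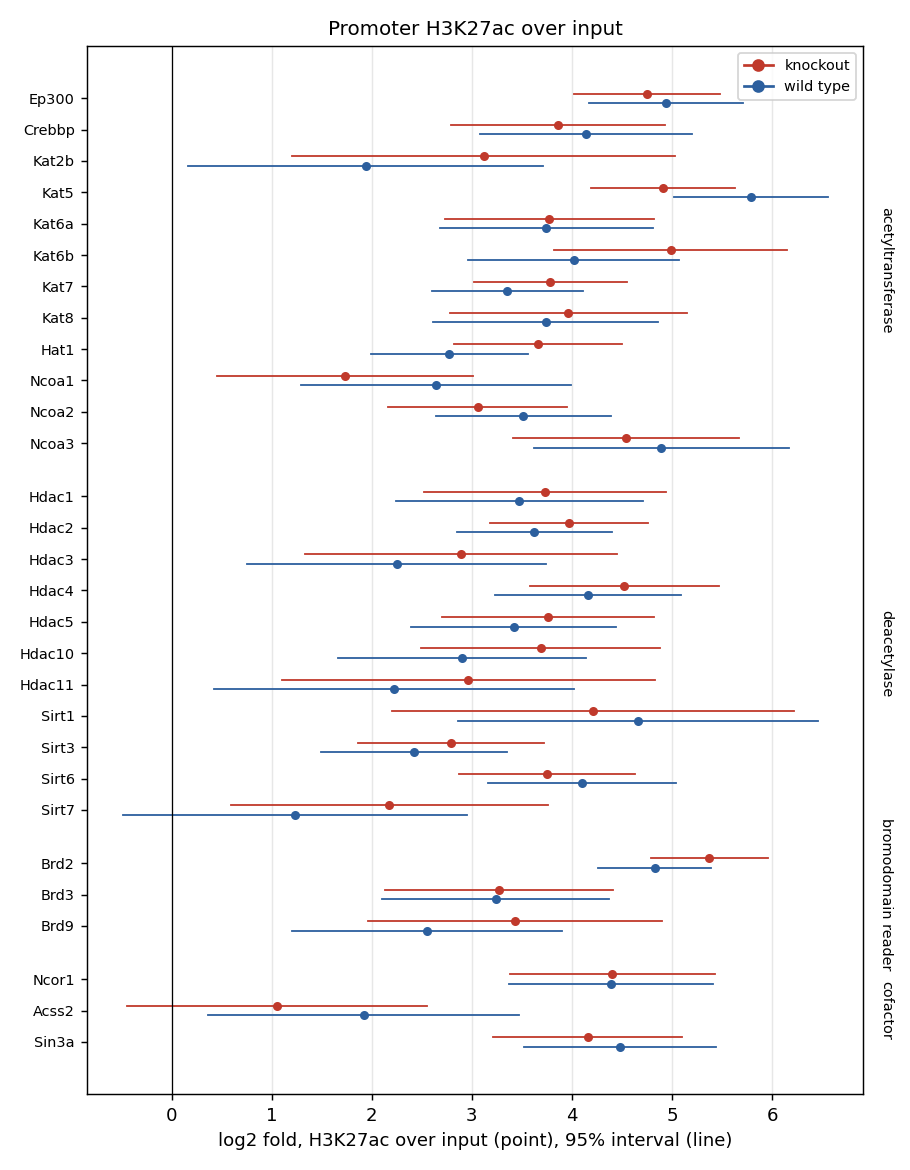
Log2 fold of promoter H3K27ac over input for the 29 members tested, by class, with knockout (red) above wild type (blue) and 95% intervals as lines. Brd2 lies farthest right in knockout, at 5.37, and Kat5 in wild type, at 5.79; Acss2 and Sirt7 lie nearest 0.

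Brd2, a BET-family reader that binds acetylated histones, was the highest member in knockout, at 5.37 over input (SE 0.29) in knockout and 4.83 (SE 0.28) in wild type. Kat5, the catalytic subunit of the TIP60 complex, was the highest in wild type, at 4.91 (SE 0.36) in knockout and 5.79 (SE 0.38) in wild type. Its promoter windows held 8, 15 and 0 tags in the wild-type inputs and 17, 12 and 10 in the knockout inputs. Ep300 stood at 4.75 in knockout and 4.94 in wild type, and Crebbp at 3.86 and 4.14. Among deacetylases Sirt1, a nuclear sirtuin, stood at 4.21 in knockout and 4.66 in wild type, although on few tags. Hdac3, the catalytic subunit of the NCoR and SMRT corepressor complexes, stood at 2.89 in knockout and 2.25 in wild type, below its scaffold Ncor1, at 4.40 and 4.39.

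Averaged over both genotypes, the members nearest input were Acss2, Sirt7 and Ncoa1. Acss2, which makes acetyl-CoA from acetate, was not called in knockout at 1.05 (SE 0.75, adjusted p = 0.163, edgeR) and was called in wild type at 1.92 (SE 0.77, adjusted p = 0.0173, edgeR). Its wild-type value rested on replicate 2, with 43 tags against 3 and 10 in the other wild-type libraries; without it the value was 0.51 (adjusted p = 0.581, edgeR), and without wild-type input replicate 3 it was 1.55 (adjusted p = 0.0792, edgeR). Sirt7, a nucleolar sirtuin, was called in knockout at 2.18 and not in wild type at 1.23, and the test of knockout against wild type below did not separate them. Without knockout input replicate 1 its knockout value was 1.66 (adjusted p = 0.0770, edgeR). Ncoa1, a steroid receptor coactivator, stood at 1.73 in knockout and 2.64 in wild type, where Kat2b (1.94), Hdac11 (2.22), Hdac3, Sirt3 (2.42) and Brd9 (2.55) lay nearer input. 3 members with a promoter window fell under the filter on low counts. Kat2a, the GCN5 acetyltransferase, had 0, 9 and 0 promoter tags in knockout and 5, 3 and 0 in wild type. Hdac7 and Hdac9, class IIa deacetylases, averaged 0.147 and 1.24 all-tag CPM at the promoter in knockout and 0.521 and 0.877 in wild type.

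**Figure D2:**
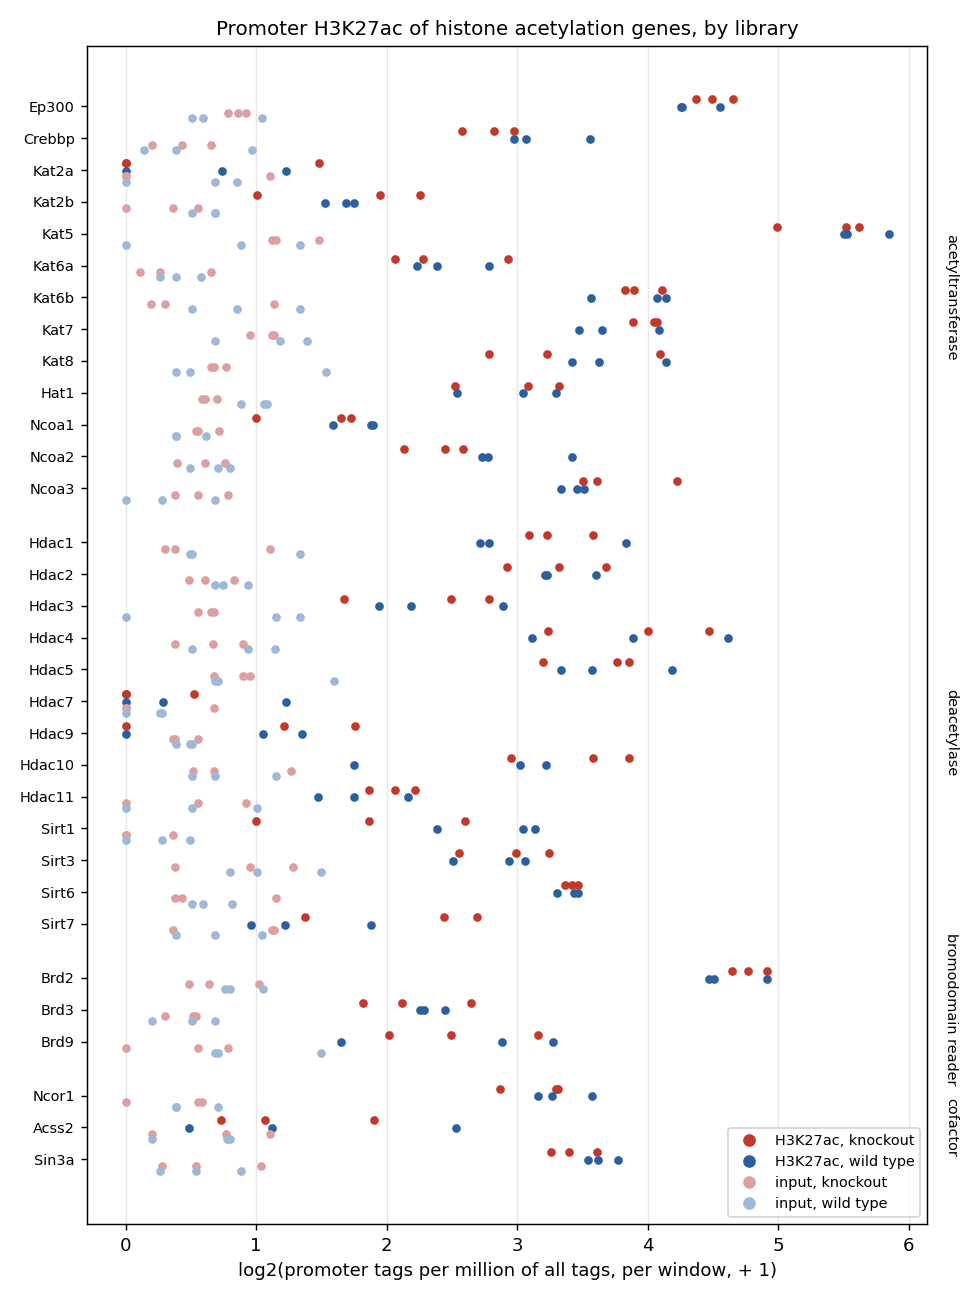
Promoter all-tag CPM per window, on a log2(value + 1) axis, for 32 members in each library: H3K27ac of knockout (red) and wild type (blue) and the inputs (pale). Most members lie right of their inputs, Kat5 and Brd2 farthest, while Kat2a and Hdac7 lie among them.

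Levels at promoters, as all-tag CPM per window, differed widely between members. Readers averaged 19.8 ± 1.80 in knockout and 18.2 ± 3.14 in wild type (SD, n = 3 each), which Brd2 set: 26.5 ± 2.54 in knockout and 24.01 ± 4.47 in wild type, against 3.72 and 4.04 for Brd3. Acetyltransferases averaged 10.8 ± 1.68 in knockout and 11.6 ± 0.578 in wild type. Deacetylases averaged 7.58 ± 1.12 in knockout and 7.35 ± 1.10 in wild type. Cofactors averaged 6.43 ± 0.525 in knockout and 7.60 ± 1.14 in wild type. The same measure over all genes was 8.85 ± 0.755 in knockout and 8.97 ± 0.634 in wild type. Within each class the ranges of the 3 libraries of the genotypes overlapped in every case.

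Brd2 windows overlap each other, and 1 of them holds the start site of H2-DMa, an MHC class II chaperone gene, so their tags cannot be split between the genes. Promoter windows of Kat7, Hdac10, Sirt3 and Brd9 likewise hold a start site of another gene (Gm11520, Gm46530, Psmd13 and Trip13).

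Knockout against wild type, summed per gene within 100 kb, gave no call among the members: of 30 tested, 0 were called by edgeR's quasi-likelihood test after Benjamini-Hochberg adjustment over 12148 genes, where 0.206% of all genes were called. DESeq2 called 0 of the 24 members to which it gave an adjusted p (0.408% of 9321 genes). At an unadjusted p below 0.05 there were also 0 by either tool, where 5.77% of all genes were with edgeR and 5.7% with DESeq2. The median log2 fold change was -0.01 for the members and 0.00 over all genes, with 15 members above 0 and 15 below, and in 0 members did the TMM-scaled CPM of the 3 knockout libraries stand apart from the 3 wild-type libraries (11.3% of all genes). A p that misses the threshold does not show equal levels: 95% intervals reached a median of 0.610 to either side, and 19 of 30 lay within 1 on the log2 scale. Kat2a, Hdac7 and Hdac8 were under the filter.

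**Figure D3:**
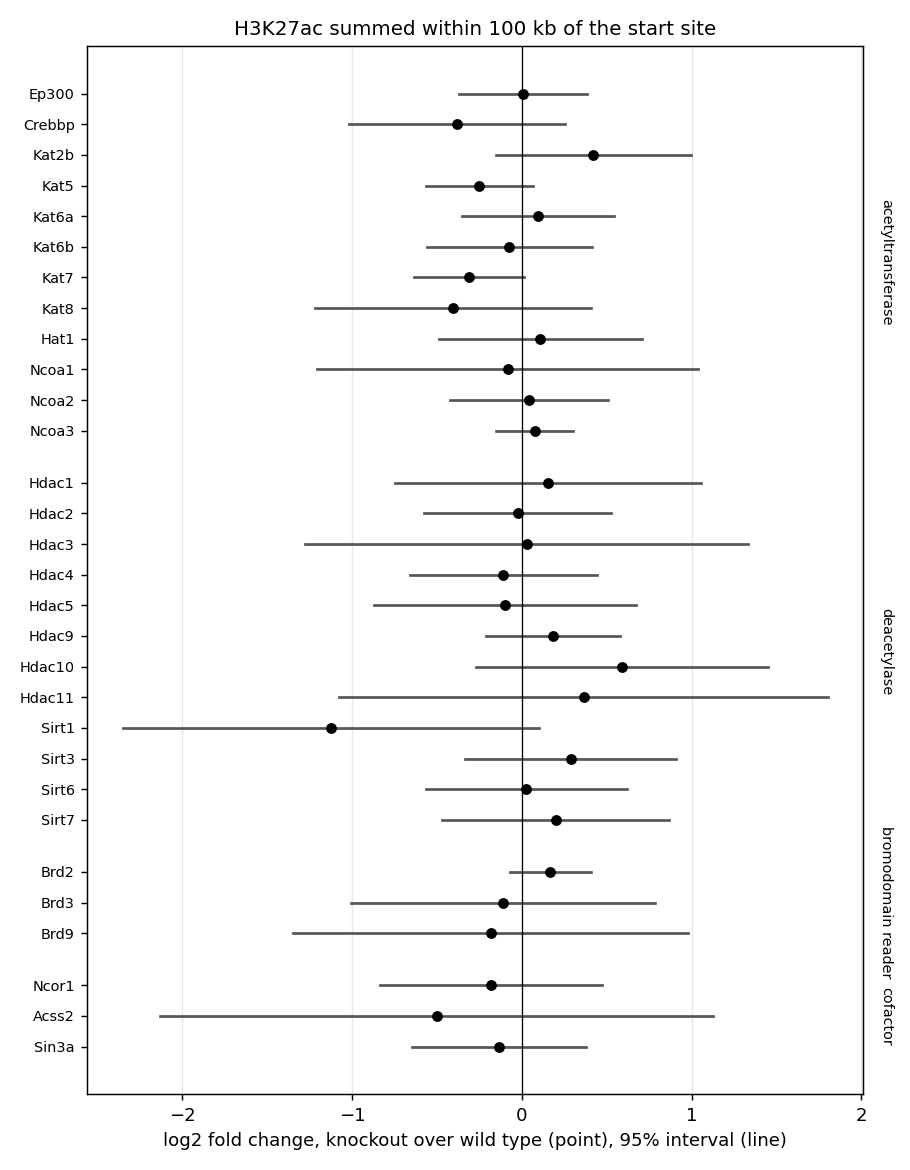
Log2 fold change of H3K27ac summed within 100 kb, knockout over wild type, for the 30 members tested, with 95% intervals. Every interval crosses 0; Sirt1 lies lowest at -1.13 and Hdac10 highest at 0.59.

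Among acetyltransferases the median was -0.03, with 6 of 12 above 0. Ep300 had 143, 140 and 131 CPM of the tags kept for the test in knockout and 129, 132 and 152 in wild type, which overlap almost fully (log2 fold change 0.01, 95% interval -0.37 to 0.38). Crebbp had 48.2, 48.3 and 30.7 CPM in knockout and 51.6, 73.0 and 41.7 in wild type (-0.38, interval -1.02 to 0.26). Kat7, the HBO1 acetyltransferase, had the smallest p of all members: 202, 238 and 179 CPM in knockout and 297, 220 and 254 in wild type (-0.31, SE 0.16, adjusted p = 0.884, edgeR). The highest knockout library lay inside the wild-type range. Kat5 had 241, 228 and 175 CPM in knockout and 236, 249 and 282 in wild type (-0.25, interval -0.57 to 0.06). Kat2b, the PCAF acetyltransferase, gave 0.42 with an interval of -0.16 to 1.00.

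Deacetylases had a median of 0.09, with 8 of 12 above 0. Sirt1 had 8.90, 2.39 and 14.2 CPM in knockout and 18.3, 11.96 and 25.1 in wild type, so 1 knockout library lay inside the wild-type range (-1.13, SE 0.60, interval -2.35 to 0.10, adjusted p = 0.892, edgeR). Hdac10 had 32.5, 18.7 and 30.7 CPM in knockout and 20.3, 22.1 and 11.99 in wild type (0.59, interval -0.27 to 1.45). Hdac3 had 10.997, 5.26 and 16.5 CPM in knockout and 15.7, 9.57 and 6.85 in wild type, too few for a narrow estimate (0.03, interval -1.28 to 1.33). Hdac5, a class IIa deacetylase, had 19.4, 32.5 and 35.3 CPM in knockout and 22.2, 29.3 and 41.7 in wild type. Sirt6, a chromatin-bound sirtuin, was the steadiest: 46.1, 48.3 and 52.4 CPM in knockout and 47.7, 47.9 and 48.5 in wild type (0.03, interval -0.57 to 0.62).

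Readers and cofactors did not separate either. Brd2 had 523, 465 and 512 CPM in knockout and 397, 427 and 510 in wild type (0.17, interval -0.07 to 0.40). Brd9, a subunit of a SWI/SNF-type remodelling complex, had 10.997, 19.1 and 8.54 CPM in knockout and 5.23, 23.3 and 15.4 in wild type. Ncor1 had 29.8, 43.1 and 49.5 CPM in knockout and 38.5, 58.6 and 41.7 in wild type (-0.18, interval -0.84 to 0.47). Sin3a, the scaffold of another deacetylase complex, had 64.9, 61.3 and 75.1 CPM in knockout and 68.6, 79.0 and 73.1 in wild type (-0.13). All 3 cofactors lay below 0, but without wild-type replicate 2 Ncor1 was at 0.019 and Acss2 at 1.008. Acss2 was at -0.50 on 3.14, 5.26 and 15.4 CPM in knockout and 1.96, 25.7 and 5.71 in wild type.

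Promoter windows alone gave the same count: of 28 members tested, 0 were called by edgeR or DESeq2 (0.0109% of 9139 promoters by edgeR and 0.0766% by DESeq2), with 12 above 0 and 16 below. Only Ncoa2 had an unadjusted p below 0.05 with edgeR (4.76% of all promoters had), and DESeq2 gave 1 member such a p (4.71% of all). Ncoa2 encodes a steroid receptor coactivator that recruits p300 and CBP. Its promoter windows held 68, 51 and 66 tags in knockout and 63, 79 and 123 in wild type, or, as all-tag CPM per window, 5.002, 3.38 and 4.47 in knockout against 5.64, 5.86 and 9.69 in wild type. The log2 fold change was -0.70 (SE 0.32, adjusted p = 1.00, edgeR). On the TMM-scaled CPM of the test the groups stood apart for Ncoa2 and Sin3a, 2 of 28 members, where 10.2% of all promoters did. For Sin3a (-0.23) they overlapped in tags, at 102, 86 and 94 in knockout and 84, 96 and 107 in wild type. Sirt7 had the largest value, 1.24 (SE 0.80), on 4.41, 1.59 and 5.48 all-tag CPM in knockout and 2.68, 1.34 and 0.945 in wild type, which overlap.

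Single windows were also tested. The Ncoa2 promoter windows among them hold the same tags as its promoter sum, so they are not separate support. Of 112 member windows tested, 0 were called by edgeR (0.0595% of 40370 windows) and 1 by DESeq2 (0.168% of all windows). An unadjusted p below 0.05 was given to 4 by edgeR (4.69% of all windows) and to 9 by DESeq2 (6.68% of all). The window called by DESeq2 lay at -360 bp from an Ncoa2 start site, at chromosome 1, 13373943 to 13374943 of mm10, and is annotated as promoter. It held 5, 1 and 4 tags in knockout and 21, 19 and 38 in wild type, with 4, 0 and 1 in knockout input and 2, 5 and 1 in wild-type input. Every knockout library lay below every wild-type library, near the input level. The log2 fold change was -3.10 (SE 0.80, 95% interval -4.74 to -1.45) with an adjusted p of 0.350 by edgeR, and -3.15 with an adjusted p of 0.0177 by DESeq2. Under the other alternatives, all with edgeR, the value lay between -3.48 and -2.64 and the adjusted p between 0.147 and 1.00.

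**Figure D4:**
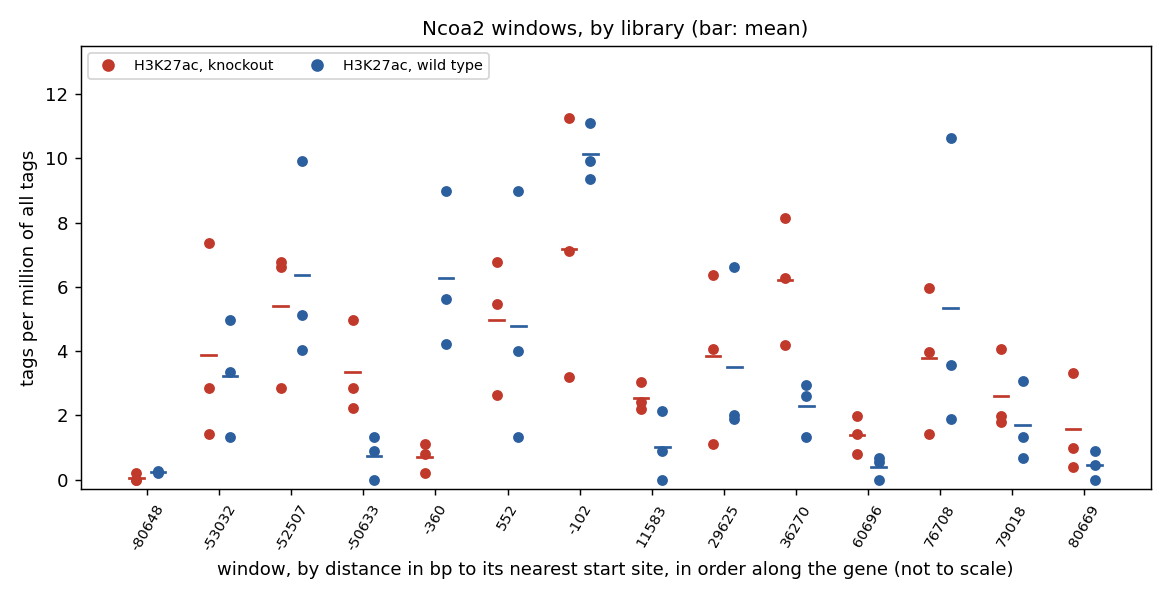
All-tag CPM in each of the 14 Ncoa2 windows, ordered along the gene from upstream, for knockout (red) and wild type (blue) H3K27ac libraries, with the mean as a bar. At the -360 bp window the knockout libraries lie near 0 and all wild-type libraries above 4, while at 36270 bp knockout lies higher.

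Other Ncoa2 windows differed from it in size or direction. The second promoter window, at -102 bp from a second start site, held 51, 16 and 35 tags in knockout and 37, 42 and 47 in wild type, which overlap (-0.49). The remaining window within 1 kb of a start site, at 552 bp, overlaps the edge of the -360 bp window; it held 12, 34 and 27 tags in knockout and 5, 18 and 38 in wild type, which also overlap (0.07). An intronic window at 36270 bp held 19, 41 and 31 tags in knockout and 11, 6 and 11 in wild type, all knockout libraries above all wild-type ones (1.46, SE 0.61, adjusted p = 0.998, edgeR). Of the 9 Ncoa2 windows tested, 5 lay above 0 and 4 below, and their sum over the gene gave 0.04. Over the members, 13 windows had groups that stood apart in TMM-scaled CPM, 7 higher and 6 lower in knockout, where 10.9% of all windows did (5.48% higher and 5.4% lower).

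Kat7 and Ncoa3 held the other windows of lowest p. In intron 5 of Kat7, 18055 bp from the start site, a window held 26, 47 and 10 tags in knockout and 63, 62 and 50 in wild type, without overlap (-1.34, SE 0.42, adjusted p = 0.728 by edgeR and 0.212 by DESeq2). Its neighbours at 17049 and 16707 bp lay at -0.51 and -0.32, and both Kat7 promoter windows above 0, at 0.30 and 0.27. An Ncoa3 window at 38747 bp held 12, 9 and 13 tags in knockout and 30, 12 and 33 in wild type, of which the lowest wild-type value lay inside the knockout range (-1.34, adjusted p = 0.998, edgeR).

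**Figure D5:**
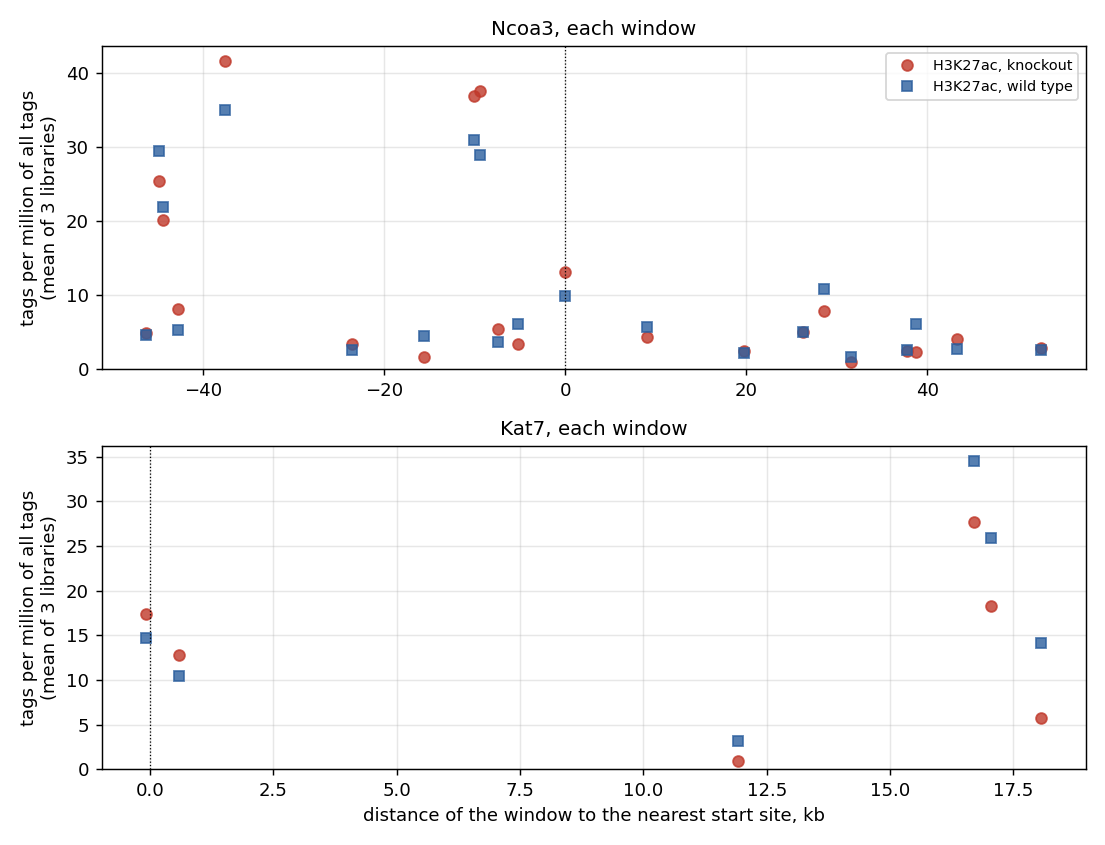
Mean all-tag CPM (3 libraries) in each window of Ncoa3 and Kat7 against distance to the nearest start site, for knockout (circles) and wild type (squares). The strongest Ncoa3 windows lie upstream, up to 41.7 in knockout at -37642 bp, and the strongest Kat7 windows lie in intron 5.

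For several members, most H3K27ac tags in windows within 100 kb lay away from the promoter. These windows were given to the gene named as nearest, and whether they act on that gene was not tested. In 10 of the 33 members with windows, less than 50% of tags lay in promoter windows in knockout, and likewise 10 in wild type. Among them are Hdac8, which had no promoter window, and Hdac7, which lay near input. Hdac7 had 0.179 all-tag CPM per window in knockout H3K27ac and 0.405 in knockout input. Tags were not corrected for input, and overlapping windows count more than once. The same count over all genes was not made, so the number is not a trait of the members. Ncoa3, another steroid receptor coactivator, had 21 windows, of which the promoter held 5.63% of tags in knockout and 4.46% in wild type. Its strongest window, at -37642 bp upstream of the start site, averaged 41.7 all-tag CPM in knockout and 35.1 in wild type, against 13.1 and 9.84 at the promoter. Hdac9 had 13 windows with 1.86% of tags at the promoter in knockout and 1.52% in wild type, the rest mostly intronic. Kat2b had 8.96% of tags at the promoter in knockout and 10.3% in wild type, and its intron 1 windows were stronger than its promoter.

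The site lists, which say whether a site was found in knockout, in wild type or in both, were shared by most member windows. The merged sites come from a directory named ATAC, so a place in a list need not mean that H3K27ac was present. Of the 158, 123 were in both lists (77.8%), 15 only in the knockout list (9.49%) and 20 only in the wild-type list (12.7%). Over the whole table the shares were 75.5%, 8.18% and 16.3% in the same order.

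Input was compared in the same way. Of 16 members with enough input tags, 0 were called between knockout and wild type by edgeR or DESeq2 (0.200% of 6511 genes by edgeR and 0.108% by DESeq2), and 0 had an unadjusted p below 0.05 with either tool (5.28% of all genes with edgeR and 1.83% with DESeq2).

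The rest of the pathway was read from 105 other genes of writer, eraser and reader complexes and acetyl-CoA supply. Of 96 tested, 0 were called by edgeR (0.206% of all genes), 6 had an unadjusted p below 0.05 (5.77% of all genes), and 50 lay above 0 and 46 below. These counts are near the background, and the genes named next are only the first of each list by p. Kansl1, a scaffold of the NSL acetyltransferase complex, had the smallest p of the writer list (-0.41, SE 0.15, adjusted p = 0.570, edgeR), with 274 ± 56.9 CPM in knockout and 365 ± 39.2 in wild type (SD, n = 3 each, edgeR). Sin3b led the eraser list (-1.10, adjusted p = 0.854, edgeR), Baz2a the reader list (-0.45, adjusted p = 0.822, edgeR) and Acss1 the acetyl-CoA list (0.32, adjusted p = 0.897, edgeR).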

How the data were processed

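The authors' deposited table holds raw counts, tags per 1000 bp window on merged sites from a directory named ATAC, counted with HOMER annotatePeaks.pl on mm10 without adjustment, per the file headers. No source used here names the aligner, the site caller or how duplicates were handled. The deposited normalized table, the same counts times 1 factor per library, was not used. The members and gene lists were chosen with earlier results of these data known.

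Windows were summed per gene within 100 kb and, for promoters, within 1 kb of the start site; some windows overlap, so tags can count more than once. Tests used edgeR 4.0.16 (R 4.3.3): TMM scaling, filterByExpr, the quasi-likelihood F test, and Benjamini-Hochberg adjustment over all features at 0.05, 2-sided. H3K27ac against input used 1 fit of all 12 libraries with all tags of a library as its size, in the test and in filterByExpr. At first filterByExpr used the tags in the summed windows as size. This was changed after the data were seen, because leaving out 1 H3K27ac library then removed many of the genes through the filter alone; the values with that filter are given among the alternatives. DESeq2 1.42.0 was an alternative. Scripts were tested on simulated counts. Named members were, in each class, the 2 with the smallest p, the 2 with the highest level, and the highest and lowest over input. Ep300, Crebbp, Hdac3 and Ncor1 were added. Other members are given by level, share or fold change. Windows were named for an unadjusted p below 0.05. Further windows of the same genes, without such a p, are given beside them or by level. Intervals cover the spread between libraries. Replicate numbers were not used to pair samples in the main tests. Same-numbered libraries' deviations correlated between -0.016 and 0.023. Inputs held a median of 2 to 5 tags per window, so these correlations cannot settle pairing. In wild type, replicate 1 had 0 tags at Y-linked promoters in both H3K27ac and input.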

Additional observations from a re-analysis of the deposited data

How the results depend on the processing

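No member was called in the tests of knockout against wild type on gene sums, promoter sums or input under any alternative, and no member window except the Ncoa2 window called by DESeq2 (1 member window; -3.15). Counts over all features moved more. Gene sums gave 25 calls, 16 with total tags, 38 with DESeq2, 48 without a filter, 15 with the replicate block and 8 to 18 leaving out 1 library. Promoter sums gave 1, then 5, 7, 8, 3 and 1 to 5 in the same order, and 2 within 500 bp. Single windows gave 24, 68 with DESeq2, 68 without a filter and 10 to 29 leaving out 1 library; input gave 13, 6 with total tags and 7 with DESeq2. Whether the replicate numbers pair samples was not settled, and not every library correlated best with its own number.

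Over input, 28 members were called in each genotype, 27 to 28 in knockout and 25 to 27 in wild type leaving out 1 library, and 28 in both with the filter on summed windows, an alternative added after seeing the data (8821 promoters called in knockout and 8570 in wild type, against 8759 and 8573). TMM on promoter sums, which by construction scales most of the enrichment away, left 3 members and 1099 promoters in knockout and 3 members and 1088 in wild type. It moved the median over all promoters to 0.02 in knockout and -0.02 in wild type and put 10 of 29 members below 0 in knockout (49.3% of all promoters) and 12 in wild type (50.7%). Of the members followed through every alternative these were Ncoa1 (-1.75 in knockout, -0.69 in wild type), Hdac3 (-0.55, -1.05), Sirt7 (-1.29, -2.08), Brd9 (-0.039, -0.75) and Acss2 (-2.41, -1.38).

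Signs near 0 in gene sums turned: Hdac3 to -0.0087 with total tags and -0.036 with the replicate block, Sirt7 to -0.11 without overlapping windows and -0.22 on sites in both lists, and Ncor1 to 0.080 without overlapping windows. Leaving out 1 library gave values on both sides of 0 for Ep300 (-0.040 to 0.081), Hdac3 (-0.39 to 0.40), Hdac5 (-0.29 to 0.17), Brd9 (-0.59 to 0.31), Sirt6 (-0.025 to 0.065), Ncoa1 (-0.40 to 0.26), Ncor1 (-0.34 to 0.019) and Acss2 (-0.99 to 1.008). The causes were not tested. The fold changes of members with few tags, such as Hdac3 and Sirt1, had the wide intervals given above.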
